A study of Cavia porcellus with 13 samples.

Results

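The genes described here are the interleukins and interleukin receptor chains of guinea pig skin, together with Tnf and Cxcl8, at tick bite sites and in unbitten skin. They were the rows whose gene symbol starts with IL and a digit, plus those 2 genes, which gave 71 of the 26855 genes in the deposited expression table, 18254 of which carry a symbol. The 71 comprise 33 ligands, 31 receptor chains, 3 soluble or receptor antagonists, 3 decoy receptors and the enzyme IL4I1. Symbols are written as the table gives them, in mixed case. No row carries the symbols IL6, IL2RG, IL3RA, IL23R, IL12RB2, IL17RE, IL31, IL36A, IL36B or IL36G, and these genes were not analysed here.

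The series holds bulk RNA sequencing of 13 skin biopsies from guinea pigs, taken on day 4 after tick attachment and deposited as TPM (a gene's share of its library, corrected for transcript length). The 10 bitten biopsies came from saliva immune animals (3 biopsies), animals labelled with 3 bites of ticks (2), animals labelled with 2 bites (2) and animals at their 1st exposure (3). The 3 biopsies of naïve animals had no bite. How the saliva immune animals were immunized, the tick species and the strain, sex and age of the animals are not given in the labels used here. Sample titles begin with 1 of 2 prefixes, taken here as 2 sets of samples: saliva immune, first exposure and naive replicates 1 and 2 are CK1, and 3 bites, 2 bites and naive replicate 3 are EF19-5. The labels do not say that each biopsy came from a separate animal, so a p-value here sets a difference against the scatter of these biopsies alone, and that scatter may be technical. In bulk skin, fewer cells of a type and less RNA per cell cannot be told apart.

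Interleukins are secreted signals between immune cells and tissue cells, and most act through a pair of receptor chains on the receiving cell. In skin, keratinocytes store or release IL-1 family members, helper T cells supply the IL-2, IL-4, IL-13 and IL-17 type signals, and the receptors for IL-17, IL-20 and IL-22 sit on keratinocytes. Antagonists such as the IL-1 receptor antagonist and decoys such as the type 2 IL-1 receptor bind without signalling and so damp the response. Acquired tick resistance is a classic guinea pig phenomenon in which basophils, mast cells and T cells gather at the bite of an animal exposed before.

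The biopsies differed in makeup in ways that run with the groups. Keratinocyte markers (6 of 8 in the table, all 6 above the expression filter described below) summed to 14426 to 50778 TPM in bitten skin and 9820 to 25038 TPM in naive skin, as the tissue label requires. Skeletal muscle markers (8 of 10 in the table) took 0.344% to 5.69% of the TPM in bitten libraries, against 6.002%, 10.5% and 1.53% in naive replicates 1, 2 and 3. In bitten against naive skin 1 of the 8 was called lower (limma adjusted p = 0.0413), against 0.0401% of all genes called. At an unadjusted p under 0.05, 7 of the 8 were lower, against 4.58% of all genes. The part of muscle in the results was not tested. Adipocyte markers (7 of 8 in the table) summed to 2395 to 5522 TPM in saliva immune, 1161 to 3037 TPM in 3 bites, 1794 to 1954 TPM in 2 bites and 2493 to 7240 TPM in first exposure skin, against 1057, 532 and 2302 TPM in naive skin. All 7 were higher at an unadjusted p under 0.05 in saliva immune and in first exposure skin against naive skin, and the part of fat in the results was not tested. Endothelial markers (5 of 6 in the table) summed to 31.9 to 112 TPM in bitten skin and 31.4 to 61.8 TPM in naive skin. Of the 5, 4 were higher at an unadjusted p under 0.05 in bitten against naive skin, against 11.2% of all genes. Naive replicate 2, the library with the most muscle, was the lowest of the 13 for 63.0% of the members that passed the filter, against 31.1% of all genes that passed. 2 bites replicate 1 was the highest for 39.1% of those members, against 13.4% of all genes. In several comparisons the counts at an unadjusted p under 0.05 and the medians are also given without 1 of these libraries. Most values of single members, and the counts of members whose groups do not overlap, are given with both libraries only.

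Of the 71 members, 43 were above 0 TPM in all 13 libraries, 20 in 1 to 12 libraries, and 8 were listed at 0 in every library. The 8 were Il2, Il5, IL9, IL21, IL22, IL20, Il12a and IL1RAPL2, so the defining ligands of several T cell programmes were not detected, and the sequencing depth behind a 0 is not known. A value of 1 TPM or more in at least 2 libraries, the filter used for all comparisons, was reached by 46 members, and 31 of them reached 1 TPM in all 13. Receptors passed more often than ligands: 23 of 31 receptor chains and 16 of 33 ligands, with all 3 antagonists and all 3 decoys. By family, 12 of 17 IL-1 members passed, 7 of 10 IL-17 members, 9 of 18 members of the common gamma chain and type 2 group, 7 of 11 IL-10 and IL-20 members, 6 of 10 IL-6 and IL-12 members and all 5 others. Among the 25 that did not pass, 17 were above 0 somewhere. IL18R1, a chain of the IL-18 receptor, was above 0 in 8 libraries with at most 0.888 TPM, and IL1RL1, the IL-33 receptor, was above 0 in 7 libraries with at most 0.277 TPM. IL21R was detected in all 13 libraries but stayed between 0.107 and 0.739 TPM.

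The most abundant member was IL36RN, the antagonist of the IL-36 receptor, with a median of 226 TPM over the 13 libraries and a range of 75.2 to 382 TPM. It was followed by IL6ST (the shared signalling chain gp130, median 99.0 TPM), IL13RA1 (a chain shared by IL-4 and IL-13, 94.3 TPM), IL4R (the IL-4 receptor alpha chain, 61.5 TPM) and IL20RB (a chain for IL-20 family ligands, 61.4 TPM). IL34, a ligand of the macrophage receptor CSF1R, had the highest median of the ligands at 45.6 TPM. Every neighbouring pair in the order of the medians overlapped in its range over libraries, and of the pairs IL13RA1 and IL4R alone had the first member above the second in each of the 13. The receptor chains of IL-4 and IL-13 were thus among the highest members, and the ligands were at or near 0: Il4 stood at 0.511 and 0.590 TPM in the 2 bites libraries and was listed at 0 in the other 11. IL13 stood at 3.58 TPM in 2 bites replicate 1, at 0.667 and 0.344 TPM in saliva immune replicates 1 and 2, at 0.433 TPM in naive replicate 3, and was listed at 0 in the other 9 libraries.

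**Figure D1:**
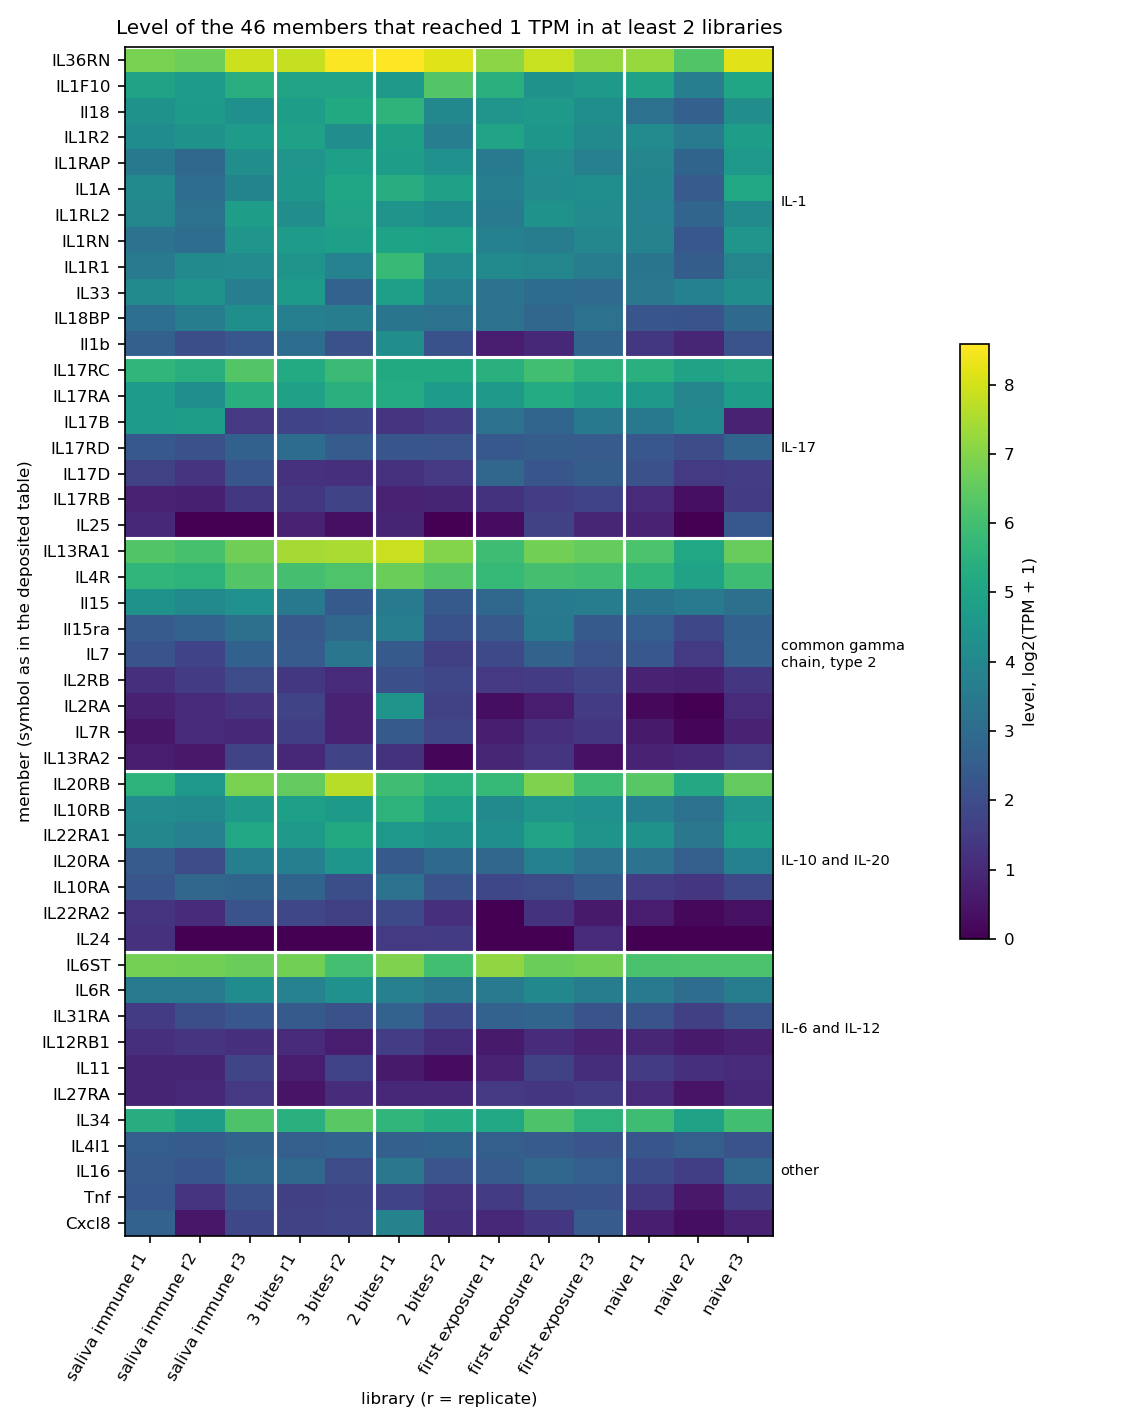
Level of each member that passed the filter (rows, grouped by family and ordered by median) in each of the 13 libraries (columns), as log2(TPM + 1) by colour. IL36RN, IL6ST, IL13RA1, IL4R and IL20RB are bright across all groups, and naive replicate 2 is dark in many rows.

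Bitten against naive skin is the comparison with the most libraries, 10 against 3. No member passed the test, limma on log2(TPM + 1) with the title prefix as a term and Benjamini-Hochberg adjustment over all 14979 genes tested, at an adjusted p under 0.05; 0.0401% of all genes passed. At an unadjusted p under 0.05, 14 of the 46 members were higher and 0 were lower, a share of 30.4% where 11.2% of all genes were higher and 4.58% lower. The difference was above 0 for 40 of 46 members (87.0%, against 64.6% of all genes), with a median of 0.40 against 0.10 over all genes, both in log2(TPM + 1). Without naive replicate 2 the unadjusted count was 5 higher and 1 lower (3.16% and 2.12% of all genes), and the median 0.21, against 0.01 over all genes. Among the 46, 5 passed the filter only through bitten libraries (Cxcl8, IL12RB1, IL22RA2, IL24 and IL7R were under 1 TPM in every naive library). IL2RA, IL2RB, IL27RA, IL13RA2 and IL25 reached 1 TPM in a single naive library and so also needed a bitten library to pass. These counts are therefore a description. No member had all 10 bitten libraries above, or below, all 3 naive ones; 1.03% of all genes lay wholly above and 0.28% wholly below. Within CK1, 9 members had every bitten library above both naive ones and 0 below (10.6% and 5.02% of all genes), and within EF19-5, 13 were above the naive library and 2 below (16.9% and 15.3% of all genes).

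The IL-18 axis led the order by p. Il18, an IL-1 family ligand that keratinocytes and macrophages hold as an inactive precursor, had 19.9, 24.5 and 18.9 TPM in saliva immune skin, 26.4 and 36.0 TPM after 3 bites, 47.1 and 15.0 TPM after 2 bites and 21.0, 23.3 and 18.2 TPM after a first exposure, against 8.22, 5.25 and 18.1 TPM in naive skin. All 6 CK1 bitten libraries were above both CK1 naive libraries, whereas 2 bites replicate 2 was below the EF19-5 naive library. The means were 25.0 ± 9.66 TPM in bitten skin (SD, n = 10) and 10.5 ± 6.70 TPM in naive skin (n = 3), a log2 difference of 1.22 (SE 0.274, limma adjusted p = 0.113), and 1.53 within CK1 and 0.64 within EF19-5. The limma adjusted p was 0.0386 without 2 bites replicate 2. Without naive replicate 2, the smallest limma adjusted p of any of the 46 members in this comparison was 0.820. The log2 difference of Il18 lay between 0.95 and 1.53 when each library was left out in turn.

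IL18BP, the soluble protein that binds and neutralizes IL-18, stood higher alongside it. It had 7.88, 11.4 and 18.4 TPM in saliva immune skin, 12.1 and 11.4 TPM after 3 bites, 9.17 and 8.40 TPM after 2 bites and 8.41, 6.14 and 8.19 TPM after a first exposure, against 3.89, 3.66 and 6.82 TPM in naive skin. First exposure replicate 2 was the only bitten library below the highest naive value, and within each prefix every bitten library was above every naive one. The log2 difference was 0.92 (SE 0.249, limma adjusted p = 0.137). The ratio of IL18BP to Il18 in TPM ranged from 0.195 to 0.972 in bitten libraries and from 0.377 to 0.697 in naive ones, so the groups overlapped. The receptor side stayed low, with IL18R1 listed at 0 in 5 libraries and IL18RAP in 7.

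Both chains of the IL-10 receptor were among the 5 members with the smallest p. IL10RB, which also serves the IL-22 and interferon lambda receptors, had 16.6, 15.7 and 23.9 TPM in saliva immune skin, 28.0 and 24.8 TPM after 3 bites, 45.7 and 29.0 TPM after 2 bites and 15.7, 21.5 and 19.49 TPM after a first exposure, against 12.2, 8.46 and 21.3 TPM in naive skin. IL10RA, the ligand-specific chain found mainly on leukocytes, had 3.93, 6.19 and 5.73 TPM in saliva immune skin, 5.87 and 3.16 TPM after 3 bites, 8.30 and 3.68 TPM after 2 bites and 2.60, 2.92 and 4.34 TPM after a first exposure, against 1.98, 1.55 and 2.71 TPM in naive skin. For both chains every bitten library was above every naive library of its own prefix. The log2 differences were 0.71 for IL10RB (SE 0.188, limma adjusted p = 0.13) and 0.82 for IL10RA (SE 0.259, limma adjusted p = 0.181). Monocyte and macrophage markers (10 of 10 in the table, none listed at 0 throughout) summed to 137 to 1059 TPM in bitten skin and 110 to 262 TPM in naive skin, and their part in these differences was not tested. Il10 itself, an anti-inflammatory ligand, was above 0 in 7 of 10 bitten libraries, with at most 1.79 TPM in 2 bites replicate 1, and was listed at 0 in all 3 naive libraries.

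The chains that bind IL-4 and IL-13 were also toward the top. IL13RA1 had 74.9, 66.7 and 104 TPM in saliva immune skin, 171 and 181 TPM after 3 bites, 236 and 125 TPM after 2 bites and 59.8, 107 and 93.0 TPM after a first exposure, against 69.6, 34.3 and 94.3 TPM in naive skin. The 4 EF19-5 bitten libraries held the highest values, and the CK1 bitten libraries overlapped naive replicate 1. Keratinocyte markers summed to 36861 to 45869 TPM after 3 bites and to 34582 to 50778 TPM after 2 bites. Their sums were 14426 to 25482 TPM in saliva immune, 17711 to 27796 TPM in first exposure and 9820 to 25038 TPM in naive skin. The part of keratinocytes in the values of IL13RA1 and IL4R was not tested. IL4R had 48.7, 45.3 and 76.5 TPM in saliva immune skin, 66.0 and 73.7 TPM after 3 bites, 98.6 and 77.5 TPM after 2 bites and 53.1, 65.8 and 61.5 TPM after a first exposure, against 48.4, 30.0 and 59.4 TPM in naive skin. The log2 differences were 0.79 for IL13RA1 (SE 0.233, limma adjusted p = 0.163) and 0.51 for IL4R (SE 0.178, limma adjusted p = 0.209). IL13RA1 stood at 1.13 to 2.59 times the TPM of IL4R in bitten libraries and at 1.14 to 1.59 times in naive ones, and the ratio was above the naive range in all 4 EF19-5 bitten libraries and in first exposure replicate 2. The decoy IL13RA2, which binds IL-13 with high affinity, lay between 0.0760 and 2.36 TPM in bitten skin and between 0.768 and 1.78 TPM in naive skin.

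IL6ST, through which IL-6, IL-11 and related cytokines signal, had 110, 106 and 97.0 TPM in saliva immune skin, 106 and 63.4 TPM after 3 bites, 120 and 62.6 TPM after 2 bites and 142, 99.0 and 106 TPM after a first exposure, against 68.0, 69.7 and 70.9 TPM in naive skin. The naive libraries spanned less than 3 TPM, 8 bitten libraries were above them, and the second replicates of 3 bites and 2 bites were below. The log2 difference was 0.51 (SE 0.193, limma adjusted p = 0.233). IL6R, the ligand-binding chain of the IL-6 receptor, lay between 9.34 and 19.4 TPM in bitten skin and 7.44 and 11.4 TPM in naive skin. IL11, a gp130 ligand of stromal cells, lay between 0.220 and 2.48 TPM in bitten skin and between 1.08 and 1.90 TPM in naive skin.

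**Figure D2:**
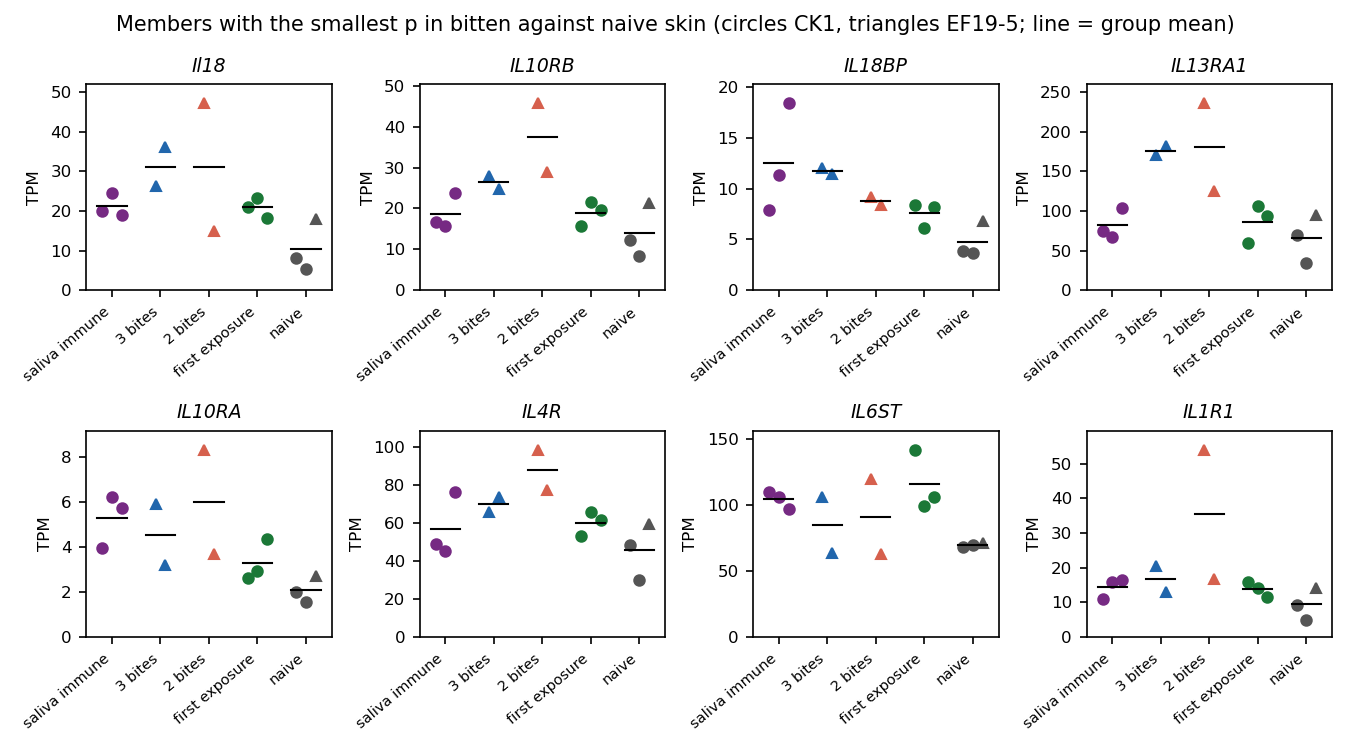
TPM of the 8 members with the smallest p in bitten against naive skin, one panel per member, by group; circles are CK1 and triangles EF19-5 libraries, and the line is the group mean. No panel has all bitten libraries above all naive ones, and IL1R1 has 1 library at 54.1 TPM with the next at 20.5 TPM.

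Within the IL-1 system, the signalling receptor IL1R1 completed the 8 members with the smallest p. It had 10.8, 15.8 and 16.6 TPM in saliva immune skin, 20.5 and 12.9 TPM after 3 bites, 54.1 and 16.7 TPM after 2 bites and 15.9, 14.2 and 11.5 TPM after a first exposure, against 9.09, 4.82 and 14.1 TPM in naive skin. The log2 difference was 0.85 (SE 0.321, limma adjusted p = 0.239), and it lay between 0.59 and 1.01 when each library was left out in turn. The ligands were less regular. Il1b, a secreted ligand matured through the inflammasome, had 5.24, 3.20 and 4.02 TPM in saliva immune skin, 7.67 and 3.42 TPM after 3 bites, 18.0 and 3.42 TPM after 2 bites and 0.624, 0.959 and 5.93 TPM after a first exposure, against 1.60, 0.900 and 3.57 TPM in naive skin. The saliva immune libraries were all above the CK1 naive libraries, while 2 of 3 first exposure libraries were below naive replicate 1. The other members of the system overlapped naive skin widely. IL1A, the cell-bound alarmin, lay between 7.45 and 39.3 TPM in bitten skin and between 4.54 and 33.8 TPM in naive skin. IL1RN, the IL-1 receptor antagonist, lay between 7.29 and 30.5 TPM in bitten skin and between 4.04 and 21.0 TPM in naive skin. IL33, an epithelial alarmin of type 2 immunity, lay between 5.51 and 27.7 TPM in bitten skin and between 9.67 and 17.4 TPM in naive skin.

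The IL-36 branch was the most abundant of the family and did not separate the groups. IL36RN lay between 101 and 382 TPM in bitten skin and between 75.2 and 289 TPM in naive skin, with 2 bites replicate 1 highest and naive replicate 2 lowest. Its receptor IL1RL2 lay between 8.14 and 30.9 TPM in bitten skin and between 5.92 and 16.1 TPM in naive skin. IL1F10, the IL-38 ligand, lay between 19.6 and 77.2 TPM in bitten skin, with 2 bites replicate 2 highest, and between 11.7 and 33.1 TPM in naive skin. The common partner chain IL1RAP lay between 6.31 and 27.7 TPM in bitten skin and between 5.84 and 23.0 TPM in naive skin.

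The receptor chains of lymphocytes were low but detected. IL2RB, shared by IL-2 and IL-15, had 1.26, 1.85 and 2.94 TPM in saliva immune skin, 1.61 and 1.03 TPM after 3 bites, 3.25 and 2.55 TPM after 2 bites and 1.68, 1.86 and 2.48 TPM after a first exposure, against 0.814, 0.694 and 1.55 TPM in naive skin. IL7R, the receptor chain for the T cell survival factor IL-7, lay between 0.429 and 4.40 TPM in bitten skin and between 0.115 and 0.753 TPM in naive skin. T cell markers (10 of 10 in the table, none listed at 0 throughout) summed to 10.6 to 35.4 TPM in bitten skin and 5.38 to 11.0 TPM in naive skin, with 2 bites replicate 1 highest, and their part in these values was not tested. IL12RB1, the chain shared by the IL-12 and IL-23 receptors, lay between 0.528 and 1.93 TPM in bitten skin and between 0.542 and 0.882 TPM in naive skin.

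The neutrophil attractant Cxcl8 had 5.47, 0.479 and 2.65 TPM in saliva immune skin, 2.26 and 2.44 TPM after 3 bites, 13.4 and 1.23 TPM after 2 bites and 0.932, 1.55 and 4.52 TPM after a first exposure, against 0.646, 0.256 and 0.757 TPM in naive skin. Only saliva immune replicate 2 was below the highest naive value. Neutrophil markers (6 of 8 in the table, MPO listed at 0 in all 13 libraries) summed to 178 to 2239 TPM in bitten skin, highest in first exposure replicate 3, and to 81.9 to 162 TPM in naive skin; their part was not tested. Tnf, the early inflammatory cytokine, lay between 1.45 and 4.20 TPM in bitten skin and between 0.518 and 1.88 TPM in naive skin, and 3 bitten libraries were below the highest naive one. IL17RA, a chain shared by most IL-17 receptors, lay between 18.3 and 42.3 TPM in bitten skin and between 14.1 and 26.3 TPM in naive skin. IL17RC, its partner for IL-17A and IL-17F, lay between 36.4 and 77.7 TPM in bitten skin and between 30.1 and 42.9 TPM in naive skin.

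**Figure D3:**
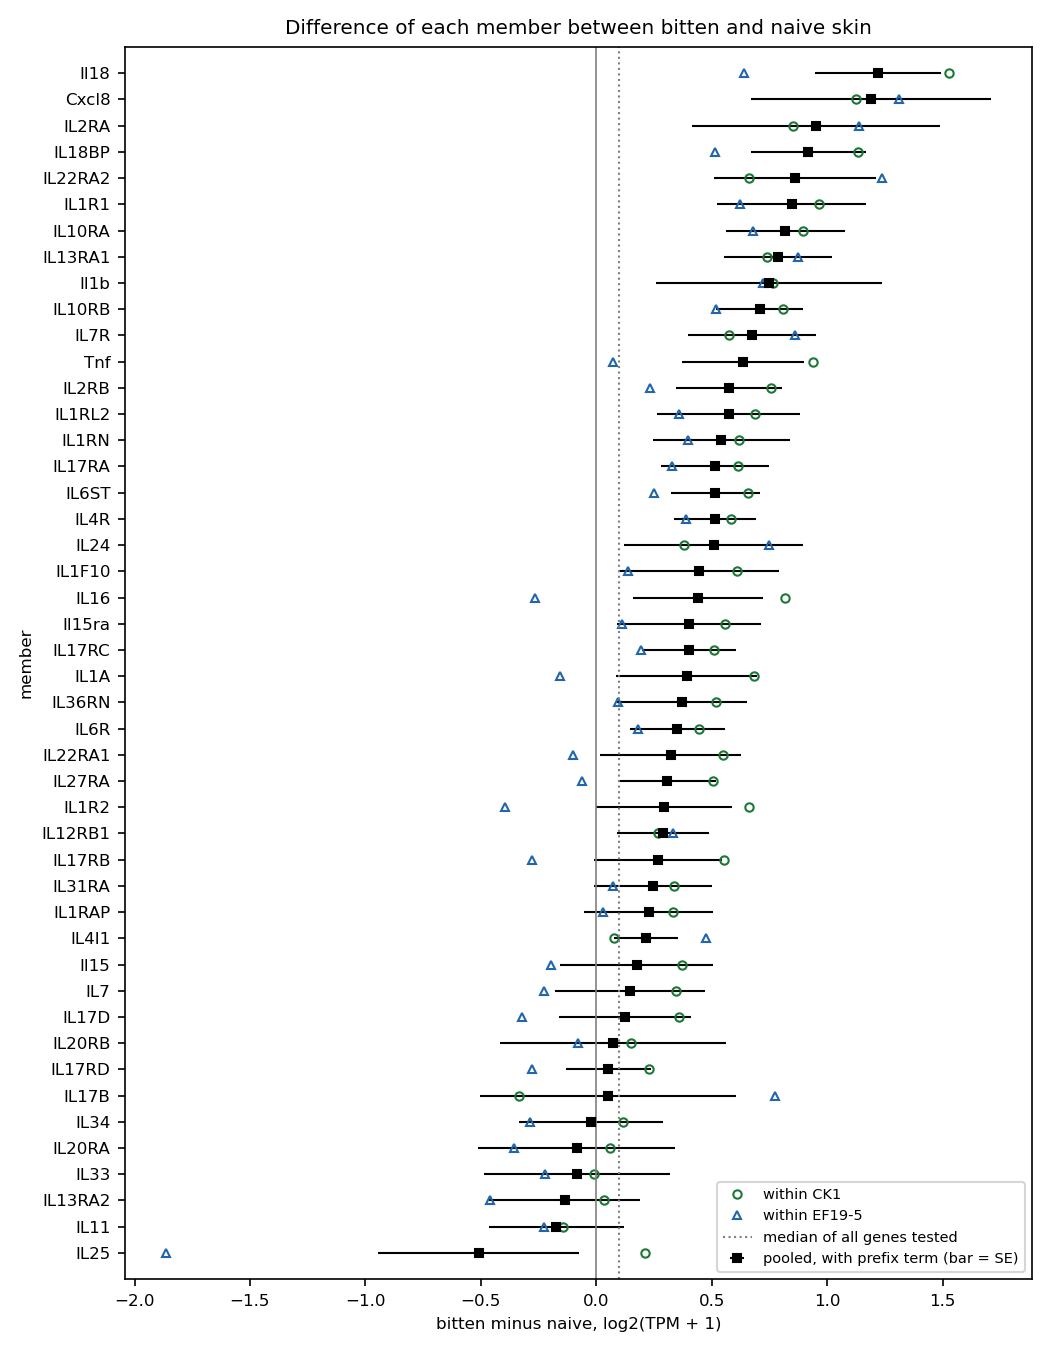
Difference between bitten and naive skin for each member that passed the filter, in log2(TPM + 1), ordered by size; squares are the pooled estimate with its SE, open circles the value within CK1 and open triangles the value within EF19-5. The pooled estimate is above 0 for 40 of 46 members, and the dotted line marks the median of all genes tested, 0.10.

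A list of 67 other genes of these pathways, chosen with earlier results of these data known, held 60 genes with a row and 56 that passed the filter. None was called in bitten against naive skin; 48 were above 0 (64.6% of all genes), with 19 higher and 1 lower at an unadjusted p under 0.05 (11.2% and 4.58% of all genes) and a median of 0.37, against 0.10. The smallest adjusted p belonged to TNFRSF1B, the second TNF receptor, with a log2 difference of 0.96 (SE 0.189, limma adjusted p = 0.0789). It stood at 13.6 to 26.7 TPM in bitten skin, median 19.4 TPM, against 5.47, 9.06 and 14.5 TPM in naive skin. IFNGR1, the ligand-binding chain of the interferon gamma receptor, was next (log2 difference 1.16, SE 0.256, limma adjusted p = 0.113), and CNTFR, a receptor chain of the IL-6 group that pairs with IL6ST, was lower with -0.86 (SE 0.199, limma adjusted p = 0.113).

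First exposure against naive skin rested on the CK1 libraries, 3 against 2, with the spread taken over all groups. It asks what a bite does in an animal not bitten before. No member was called (limma, adjusted p under 0.05; 0.0334% of all genes were); 11 of 46 were higher and 0 lower at an unadjusted p under 0.05 (9.15% and 4.49% of all genes), and 40 were above 0 (64.5% of all genes), with a median of 0.64 against 0.14. Without naive replicate 2, 1 was higher (1.95% of all genes), 35 were above 0 (49.8% of all genes) and the median was 0.20. Without first exposure replicate 3, 5 were higher (7.11% of all genes). The 4 members with the smallest p were Il18, IL10RB, IL18BP and IL2RB. Their log2 differences were 1.52 (SE 0.389, limma adjusted p = 0.203), 0.82 (SE 0.258, 0.258), 0.84 (SE 0.286, 0.279) and 0.77 (SE 0.265, 0.283), in that order. In these 4 genes all 3 first exposure libraries were above both CK1 naive libraries, which 18 of 46 members showed against 21.9% of all genes. IL17B and IL33 were wholly below, against 14.1% of all genes. IL2RB was under 1 TPM in both CK1 naive libraries and needed a bitten library to pass the filter, so its p is a description.

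First exposure replicate 3 had the highest values of IL17F, IL17C and Il23a, ligands or ligand subunits of the IL-17 and IL-23 group. IL17F stood at 2.07 TPM there, IL17C at 1.39 TPM and Il23a at 1.89 TPM. Il17a stood at 0.427 TPM. IL17F was listed at 0 in 9 libraries, with 0.459 TPM as the next highest value, in 3 bites replicate 2. Il17a was above 0 in 2 others, with 0.507 TPM in 3 bites replicate 2 and 0.191 TPM in saliva immune replicate 1. Il12b, the partner subunit of IL-12 and IL-23, was above 0 in first exposure replicate 3 alone, at 0.0900 TPM. The same library had the highest neutrophil marker sum of the 13.

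Saliva immune against naive skin, also within CK1 and 3 against 2, gave a like picture with IL18BP first. No member was called (limma; 0.00668% of all genes were); 8 of 46 were higher and 0 lower at an unadjusted p under 0.05 (9.55% and 2.08% of all genes), and 40 were above 0 (68.1% of all genes), with a median of 0.51 against 0.14. Without naive replicate 2, 3 were higher (2.35% of all genes) and the median was 0.21, against 0.01 over all genes; without saliva immune replicate 3, 5 were higher (6.54% of all genes). The log2 difference of IL18BP was 1.43 (SE 0.286, limma adjusted p = 0.206), with means of 12.5 ± 5.37 TPM in saliva immune skin (SD, n = 3) and 3.77 ± 0.165 TPM in CK1 naive skin (n = 2). Il18 (1.54, SE 0.389, limma adjusted p = 0.27), IL10RA (1.17, SE 0.343, 0.297) and IL10RB (0.80, SE 0.258, 0.34) followed. All 3 saliva immune libraries were above both CK1 naive ones for 15 members, Il1b and both IL-1 receptors among them, against 18.5% of all genes, and below for 0, against 6.22%. This comparison and the one before it share the CK1 naive libraries.

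Saliva immune against first exposure skin compares bitten skin of animals with and without the immune history. The 46 members split evenly around 0, with 20 above it (54.4% of all genes) and a median of -0.03, against 0.02. No member was called and no gene of the table was (limma; 0.0% of all genes), while 3 were higher and 1 lower at an unadjusted p under 0.05 (1.8% and 0.547% of all genes). These counts ranged from 0 to 3 and from 0 to 4 when each library was left out. Il15, which sustains NK and memory T cells, had 20.2, 16.0 and 19.4 TPM in saliva immune skin, against 6.23, 10.9 and 11.1 TPM in first exposure skin. The groups did not overlap, and the remaining 7 libraries of the series lay between 4.36 and 10.8 TPM. The log2 difference was 0.94 (SE 0.351, limma adjusted p = 1.0). IL33 had 16.3, 20.4 and 11.8 TPM in saliva immune skin, against 8.75, 7.17 and 6.96 TPM in first exposure skin. Here the naive CK1 libraries, at 9.67 and 12.7 TPM, lay above all first exposure values. Il15, IL33 and IL12RB1 were the 3 members wholly higher in saliva immune skin, against 5.41% of all genes, and 0 were wholly lower, against 1.35%.

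IL17D, a ligand of the IL-17 family, was the 1 member lower at an unadjusted p under 0.05. It had 2.14, 1.47 and 3.94 TPM in saliva immune skin, against 6.08, 3.89 and 4.77 TPM in first exposure skin, and the groups overlapped by the third saliva immune library. The log2 difference was -0.79 (SE 0.286, limma adjusted p = 1.0). IL18BP (0.60, SE 0.256) and IL22RA2, a soluble decoy for IL-22 (0.89, SE 0.388), completed the 4 smallest p, both with a limma adjusted p of 1.0. IL17B, another IL-17 family ligand, had 25.8, 27.4 and 1.67 TPM in saliva immune skin, against 8.12, 6.02 and 9.97 TPM in first exposure skin. Saliva immune replicates 1 and 2 were the highest of the series and the third was below every other CK1 library, while all 5 EF19-5 libraries lay between 0.788 and 2.55 TPM. Within CK1, naive replicates 1 and 2 stood at 10.1 and 15.2 TPM. The library of 1.67 TPM also had the least skeletal muscle of the CK1 set, 1.47% of its TPM, and the other 7 CK1 libraries had 2.66% to 10.5%; the part of muscle in IL17B was not tested.

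**Figure D4:**
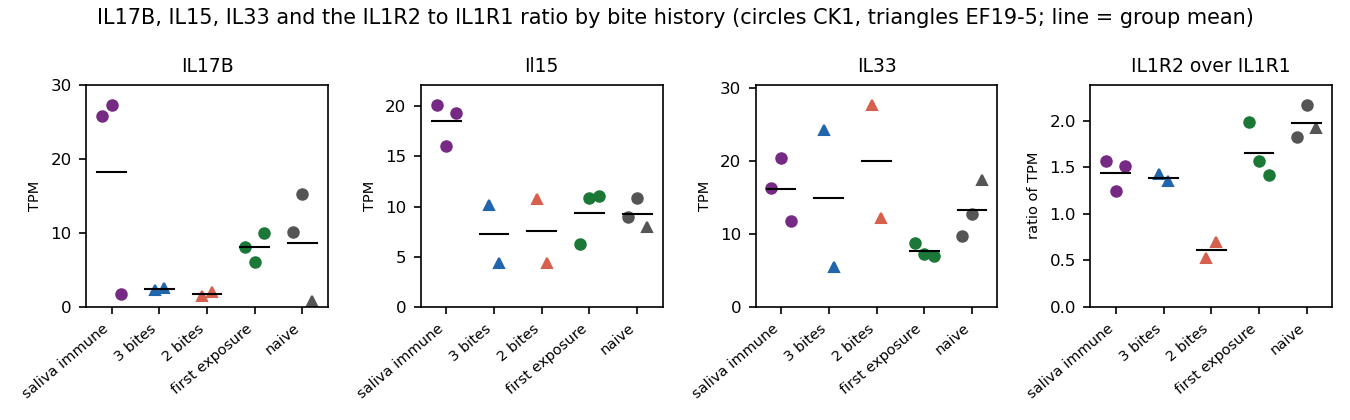
TPM of IL17B, Il15 and IL33 and the ratio of IL1R2 to IL1R1 in each library, by group; circles are CK1 and triangles EF19-5 libraries, and the line is the group mean. Il15 is highest in the 3 saliva immune libraries, IL17B is low in all EF19-5 libraries, and the ratio is below 1 in the 2 bites libraries alone.

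The repeat bite groups were set against the single EF19-5 naive library, which the fit takes to vary as the other groups do. In 3 bites against naive skin no member was called (limma; 0.00668% of all genes were), 1 was higher and 1 lower at an unadjusted p under 0.05 (1.65% and 0.694% of all genes), and 30 of 46 were above 0 (60.5% of all genes), with a median of 0.18 against 0.08. These counts ranged from 0 to 3 higher and from 0 to 2 lower when each library was left out. Both 3 bites libraries were above the naive one for 18 members and below it for 5, against 41.1% and 24.2% of all genes. IL22RA2 was the 1 member higher at an unadjusted p under 0.05. It had passed the filter only through bitten libraries, so the count and its p are a description. IL22RA2 had 2.51 and 2.06 TPM after 3 bites, against 0.307 TPM in naive replicate 3 (log2 difference 1.33, SE 0.582, limma adjusted p = 1.0). IL18BP (0.70, SE 0.383) and IL13RA1 (0.89, SE 0.495) were higher in both libraries, each with a limma adjusted p of 1.0. IL25, a type 2 ligand of the IL-17 family also known as IL-17E, was lower, with -1.80 (SE 0.65, limma adjusted p = 1.0). It reached 1 TPM only in naive replicate 3, the reference here, and in first exposure replicate 2. Its p and the count lower are therefore a description. Its 4.17 TPM in naive replicate 3 was the highest of the series; it had 0.750 and 0.262 TPM after 3 bites, 0.854 and 0 TPM after 2 bites, and at most 2.20 TPM elsewhere.

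In 2 bites against naive skin the 4 smallest p belonged to IL7R, IL25, IL24 and IL2RA. No member was called (limma; 0.0134% of all genes were), 3 were higher and 1 lower at an unadjusted p under 0.05 (2.7% and 3.16% of all genes), and 29 were above 0, where 42.2% of all genes were, with a median of 0.20 against -0.06. Without 2 bites replicate 1, 0 were higher (1.19% of all genes) and 1 lower, 20 members were above 0 (40.3% of all genes) and the median was -0.10, against -0.07. Without 2 bites replicate 2, 10 were higher (4.73% of all genes). Of the 3 higher members, IL7R and IL24 had passed the filter only through bitten libraries, and IL2RA also needed a bitten library to pass. The count and their p are therefore a description. IL7R, the IL-7 receptor chain, had 4.40 and 2.55 TPM after 2 bites, the highest values of the series, against 0.753 TPM in naive replicate 3 (log2 difference 1.32, SE 0.441, limma adjusted p = 0.743). IL2RA, the inducible alpha chain that marks activated and regulatory T cells, had 20.7 and 2.24 TPM after 2 bites, against 1.06 TPM in naive replicate 3. The log2 difference was 2.03 (SE 0.904, limma adjusted p = 0.839), and it was 0.66 without 2 bites replicate 1. IL25 gave -1.93 (SE 0.65, limma adjusted p = 0.743). It passed the filter through naive replicate 3 and first exposure replicate 2 alone, so its p and the count lower are a description. Both 2 bites libraries were above the naive one for 19 members and below it for 11, against 28.6% and 43.3% of all genes. IL24, an IL-20 family ligand, had 1.77 and 1.87 TPM after 2 bites and was listed at 0 in all naive libraries (limma adjusted p = 0.778).

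2 bites replicate 1 held the highest value of the series for many immune signals at once. Il1b stood at 18.0 TPM there, Cxcl8 at 13.4 TPM, IL2RA at 20.7 TPM and IL1R1 at 54.1 TPM. IL13 and IL19, an IL-20 family ligand, reached 3.58 and 3.68 TPM, with at most 0.667 TPM of IL13 and 0.235 TPM of IL19 in any other library. Il10 was at 1.79 TPM there and at most 0.640 TPM elsewhere, in 2 bites replicate 2. That second library did not share most of these values, with 3.42 TPM of Il1b, 1.23 TPM of Cxcl8 and neither IL13 nor IL19 above 0. The macrophage markers summed to 1059 TPM in 2 bites replicate 1, the highest of the 13 libraries, and the T cell markers to 35.4 TPM. Mast cell and basophil markers (6 of 8 in the table) summed to 38.0 and 31.2 TPM in the 2 bites libraries and to 13.5 to 38.0 TPM in all bitten skin, against 8.51 to 12.4 TPM in naive skin. Of the 5 eosinophil markers only 2, EPX and CCR3, were in the table. EPX was listed at 0 throughout and CCR3 stayed at or below 0.326 TPM, so these values cannot tell whether eosinophils were present. The part of these cells in the values was not tested.

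**Figure D5:**
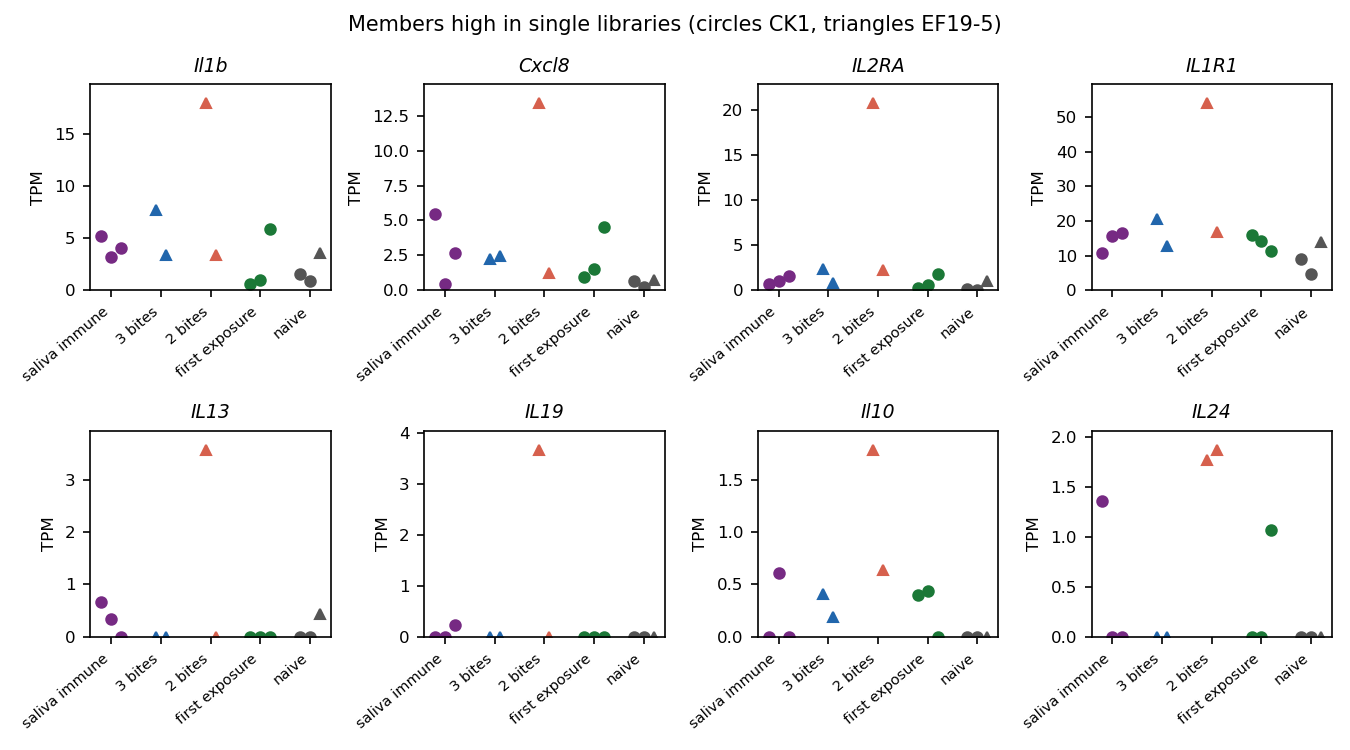
TPM of 8 members in each library, by group; circles are CK1 and triangles EF19-5 libraries. The 8 members were picked for high values in single libraries, so it follows from the choice that 2 bites replicate 1 is highest in 7 panels. IL24 is at 1.77 and 1.87 TPM in the 2 bites libraries.

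Between 3 and 2 bites, 2 libraries each, the members were nearly balanced while most genes of the table were higher after 3 bites. No member and no gene was called (limma; 0.0% of all genes), 1 was higher and 4 lower at an unadjusted p under 0.05 (8.12% and 2.66% of all genes), and 22 were above 0 (64.8% of all genes), with a median of -0.03 against 0.13. Without 2 bites replicate 1, 2 were higher (4.74% of all genes) and 2 lower (1.302%), and the median was 0.39, against 0.15. Without 3 bites replicate 2, 1 was lower (1.37% of all genes), and without 2 bites replicate 2, 8 were (4.29%). The groups did not overlap for 18 members, 11 higher and 7 lower after 3 bites, against 35.6% and 11.5% of all genes. IL24 was listed at 0 in both 3 bites libraries, against 1.77 and 1.87 TPM after 2 bites (limma adjusted p = 0.361). IL20RA, which pairs with IL20RB to receive IL-19, IL-20 and IL-24, had 12.1 and 21.9 TPM after 3 bites, against 4.38 and 6.81 TPM after 2 bites (log2 difference 1.42, SE 0.539, limma adjusted p = 0.409). IL20RB stood at 91.5 and 203 TPM after 3 bites, against 61.4 and 45.2 TPM after 2 bites, so the ligand and its 2 chains were ordered in opposite ways in these 4 libraries. The naive EF19-5 library held 12.6 TPM of IL20RA and 89.8 TPM of IL20RB. IL2RB had 1.61 and 1.03 TPM after 3 bites, against 3.25 and 2.55 TPM after 2 bites (-0.76, SE 0.291, limma adjusted p = 0.418), and IL7R had 2.00 and 0.788 TPM, against 4.40 and 2.55 TPM (-0.92, SE 0.36, limma adjusted p = 0.424). T cell markers summed to 11.4 and 15.7 TPM after 3 bites, against 35.4 and 17.1 TPM after 2 bites; their part was not tested.

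Within the IL-1 receptors the decoy stood above the signalling chain in 11 of 13 libraries and below it in both 2 bites libraries. The decoy IL1R2 had 17.0, 19.7 and 25.0 TPM in saliva immune skin, 29.3 and 17.4 TPM after 3 bites, 28.4 and 11.7 TPM after 2 bites and 31.6, 22.3 and 16.3 TPM after a first exposure, against 16.6, 10.5 and 27.1 TPM in naive skin. Set against IL1R1, it stood at 0.525 and 0.699 times in the 2 bites libraries. The other 11 libraries lay between 1.25 and 2.17 times, and the 3 naive ones held 1.82, 2.17 and 1.92 times. The ratio was chosen after its values were seen and was not tested.

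The excess of repeat bites over EF19-5 naive skin was set against the excess of a first exposure over CK1 naive skin. All repeat bite libraries are EF19-5 and all first exposure libraries are CK1. A response that differs with bite history and one that differs with prefix therefore cannot be told apart here. The EF19-5 side also rests on a single naive library. No member and no gene was called (limma; 0.0% of all genes), 0 were higher and 2 lower at an unadjusted p under 0.05 (0.821% and 2.5% of all genes), and 12 of 46 were above 0 (38.5% of all genes), with a median of -0.36 against -0.10. Without naive replicate 2 the median was -0.02, against 0.02 over all genes, and 21 were above 0 (52.4% of all genes). Without naive replicate 1 the median was -0.69, against -0.23. Without the title prefix term the direction turned, with 33 of 46 above 0 (58.4% of all genes), a median of 0.21 against 0.09, 6 higher and 2 lower at an unadjusted p under 0.05 (13.4% and 11.4% of all genes) and a smallest adjusted p of 0.0574. The count lower ranged from 1 to 4 when each library was left out. Adipocyte markers had 6 of 7 lower at an unadjusted p under 0.05 in this comparison, and their part was not tested. The 4 smallest p belonged to IL25 (-2.40, SE 0.766), IL17RB, its receptor chain (-1.08, SE 0.463), IL17D (-1.08, SE 0.506) and IL16, a CD4 ligand (-1.12, SE 0.574), all with a limma adjusted p of 1.0. IL25 passed the filter through naive replicate 3 and first exposure replicate 2 alone, so its p and its place in the count lower are a description. IL17D had 1.35 and 1.21 TPM after 3 bites, 1.33 and 1.67 TPM after 2 bites and 6.08, 3.89 and 4.77 TPM after a first exposure, against 3.38, 1.73 and 1.98 TPM in naive skin. All 4 repeat bite libraries were below every first exposure library, but they also differ in prefix, so bite history and prefix cannot be told apart for IL17D. The share of all genes with such a gap was not computed, so the gap is a description.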

How the data were processed

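RNA from guinea pig skin was sequenced on an Illumina platform by the submitters, per the labels' protocols. The deposited table, made by the authors, gives TPM per gene for 13 libraries; the submitters' processing notes name Trimmomatic, StringTie and DESeq with no version or role. The aligner, the build and the gene annotation are not given in the sources at hand, and depth is unknown. TPM is a share of a library, so a gain of 1 tissue lowers the others. Each library held 13270 to 14391 genes at 1 TPM or more, and 0 pairs of libraries were identical. Of 121 ribosomal and respiratory chain genes, 3 were listed at 0 in any library.

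The 14979 genes that reached 1 TPM in 2 or more libraries were tested with limma 3.58.1 in R 4.3.3 on log2(TPM + 1), with eBayes and an intensity trend, two-sided, Benjamini-Hochberg over all of them, at an adjusted p under 0.05. This scale understates changes of low genes. For bitten against naive skin the model had the bite and the title prefix as terms; the other 7 comparisons used 1 model of 5 groups and the prefix, so the single EF19-5 naive library is taken to vary as the others do. The fits were tested on simulated data. Statistics are printed for the 8 members with the smallest p in bitten against naive skin and the 4 in each other comparison, among those with a mean of at least 1 TPM in the higher group, and for the first 3 other pathway genes. The members and lists were chosen with earlier results of these data known. There were 8 kinds of alternative setting, leaving out each library among them, and 2 added after seeing the data.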

Additional observations from a re-analysis of the deposited data

Results flagged for a closer look

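On the log2(TPM + 1) scale, 1 of the 10 bitten libraries lay far from the rest for 2 of the 46 members that passed the filter, in both cases 2 bites replicate 1. IL1R1, the signalling IL-1 receptor, stood at 54.1 TPM there, with 20.5 TPM as the next highest bitten value, and the gap took 0.611 of the range of the bitten libraries in log2(TPM + 1). IL2RA, the inducible IL-2 receptor chain, stood at 20.7 TPM there, with 2.39 TPM next, and the gap took 0.649 of the range in log2(TPM + 1). Both are above Dixon's 95% critical value for 10 samples. Chance flags about 5% of such groups, which is about 1 in 20, so 2 of 46 members is about the share that chance gives. On TPM itself, a scale added after seeing the data, the gaps took 0.776 of the range for IL1R1 and 0.895 for IL2RA. On that scale 13 members passed the critical value, 6 of them through 2 bites replicate 1. The share of all genes that pass it on TPM was not computed, so the 13 are a description. The bitten libraries span 4 groups and 2 title prefixes, and the cause of the gap was not tested.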

How the results depend on the processing

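The count of members called was 0 in all 8 comparisons and stayed at 0 in 160 of 165 recomputed counts over 21 alternative fits. The 5 exceptions were these, and the cause was not tested. Without a filter on low values, 1 member was called in 2 bites against naive skin and 1 in 3 against 2 bites, in both cases Il4, which was listed at 0 outside the 2 bites libraries (adjusted p 0.00471 and 0.0103). Without the title prefix term, 1 was called in 2 bites against naive skin (IL7R, adjusted p = 0.0419). With array weights, 10 were called in saliva immune against first exposure skin, 3 higher and 7 lower (smallest adjusted p 0.00764), where 2174 of all genes were called. Leaving out each library in turn gave 0 to 1 in bitten against naive skin, where Il18 was called without 2 bites replicate 2 (adjusted p = 0.0386), and 0 in the other comparisons. Of 744 recomputed named differences 0 reversed sign, and 4 passed the threshold. The named differences were picked for their small p in these same data. Outside bitten against naive skin, leaving out a library that a comparison does not use cannot change its difference. The sign count therefore does not measure how firm the differences are. Without the prefix term the members' median in repeat bites against first exposure skin was 0.21, against -0.36 with it. Median-of-ratios scaling moved the median of all genes in bitten against naive skin to -0.01 and that of the members to 0.29, with 37 of 46 above 0 and 49.3% of all genes. A fit chosen after seeing the data left out both naive replicate 2 and 2 bites replicate 1. In bitten against naive skin it had 4 members higher at an unadjusted p under 0.05 (2.83% of all genes). The members' median was 0.15, against 0.02 over all genes. No paired analysis was possible because the labels give no replicate number that groups share. Values under 1 TPM rest on few reads, and the depth is unknown.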

Other observations

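The signalling side of these pathways, 28 listed genes of which 25 were tested, had 23 genes above 0 in bitten against naive skin, where 64.6% of all genes were. Of these, 7 were higher at an unadjusted p under 0.05 and 0 lower (11.2% and 4.58% of all genes), with a median log2 difference of 0.35, against 0.10 over all genes, and no gene called by limma. The feedback regulators, 11 genes all tested, had 7 above 0, 2 higher at an unadjusted p under 0.05 and a median of 0.04, where over all genes 64.6% were above 0, 11.2% higher and the median 0.10. IL27, a ligand of the IL-12 family, was above 0 in 9 libraries, with 1.31 TPM in saliva immune replicate 3 as the highest value and 0.809 TPM in naive replicate 1. The summed TPM of all 71 members ranged from 706 to 1562 in bitten libraries and was 788, 471 and 1076 in naive replicates 1, 2 and 3.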
